A study of Mus musculus with 278 samples.

Results

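Trp63, Tfap2a, Tfap2c, Gata3, Gata6, Sox2, Sox9, Grhl1, Grhl3 and Ovol1 encode transcription factors of the epidermal and hair follicle lineages, and their transcript levels were followed in single cultured mouse keratinocytes. The 10 genes were chosen by name, not by their values, though with earlier results of these data known. Of these, 8 were among the 14145 gene rows of the expression table, and Trp63 and Tfap2c were not analysed here. All 8 passed the filter on low values (over 1 TPM, a transcript abundance scaled for gene length and library size, in more than 5 cells), which 12355 genes passed. A gene was counted as detected in a cell at TPM > 1.

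In the epidermis, p63 (Trp63) and the AP-2 factors (Tfap2a, Tfap2c) set up and maintain the basal keratinocyte state. Gata3 acts in the inner root sheath of the follicle and in barrier formation, Gata6 marks the sebaceous duct and upper follicle, Sox9 is needed for follicle stem cells and the outer root sheath, and Sox2 is known from the dermal papilla and Merkel cells. The grainyhead-like factors (Grhl1, Grhl3) and Ovol1 act as keratinocytes leave the basal layer and differentiate.

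Wild-type (WT) keratinocytes from adult dorsal skin had been cultured with K14ΔNβ-cateninER keratinocytes in a ratio of 9:1. The latter carry an N-terminally truncated beta-catenin, driven by the keratin 14 promoter and fused to an oestrogen receptor domain that 4-hydroxytamoxifen (4OHT) activates. Co-cultures received 200 nM 4OHT or the vehicle, DMSO, for 24 h, and single cells were then captured on a microfluidic chip and sequenced. Cells carried the library names of 2 series, AG and GHA501A, each with untreated and treated cells, so that there were 4 sets: 66 AG untreated, 64 AG treated, 71 GHA501A untreated and 69 GHA501A treated cells. The transgenic cells could not be told apart from WT cells here, and all sets share the 9:1 mixture. Nothing in the labels says which sets came from separate cultures, so the p-values below measure only the spread between these sets.

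The label keratinocyte was checked against defining markers. In the AG series Krt14, the basal keratin, was detected in all 130 cells, with medians of 4864 TPM (untreated) and 4997 TPM (treated). In the GHA501A series the Krt14 medians were 2.25 and 10.1 TPM, while Col1a1, the fibroblast collagen gene, had medians of 1123 and 908.5 TPM against 0 in both AG sets. Over 12 keratinocyte markers the median summed level per cell was 10770 and 10360 TPM in the AG sets and 13.1 and 53.03 TPM in the GHA501A sets, and over the 8 listed fibroblast markers it was 594.4 and 720.2 TPM in AG and 2729 and 2679 TPM in GHA501A. Cells were therefore also divided by a marker gate: Krt14 > 100 TPM with Col1a1 at most 100 TPM (Krt14 gate), the reverse (Col1a1 gate), both genes > 100 TPM, or neither. The Krt14 gate held 64 of 66 and 59 of 64 AG cells, but only 8 of 71 and 10 of 69 GHA501A cells. The Col1a1 gate held 60 and 49 GHA501A cells and 0 AG cells, and 26 of the 270 cells lay between 50 and 200 TPM for either gate gene. Each cell's TPM sum to 1000000, so the depth of a cell is unknown. Median detected genes per cell were 6191, 6381, 6392 and 6008 in the 4 sets. Some genes were listed at 0 throughout one series: 34 genes detected in at least 50% of AG cells, including the widely expressed Adnp (mean 61.3 TPM in AG) and Mrpl53 (mean 179.9 TPM in AG), were listed at 0 in all 140 GHA501A cells, and 5 genes detected in at least 50% of the GHA501A Krt14-gate cells, including Itgb4, the integrin chain of hemidesmosomes, were listed at 0 in all 130 AG cells. None of the 8 transcription factors showed such a pattern. Whether both series were processed alike is not given in the sources used here, and the part of this in the differences between series was not tested.

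On the GRCm38 build Tfap2a lies at chr13:40715302-40738376, Gata3 at chr2:9857078-9890034, Grhl3 at chr4:135541888-135573630 and Ovol1 at chr19:5549136-5560646, all on the minus strand. Sox2 lies at chr3:34650405-34652461, Sox9 at chr11:112782224-112787760 and Grhl1 at chr12:24572283-24617391 on the plus strand. All 8 genes, Gata6 among them, are protein-coding, and TPM were given per gene, with no division by exon or isoform. Sox2 sits inside the long noncoding gene Sox2ot on the same strand, and antisense or opposite-strand genes overlap Tfap2a, Gata3, Gata6 and Ovol1, so reads in the shared parts cannot be told apart in these unstranded libraries. RefSeq promoter windows of GRCm38.p6, 250 bases before to 50 bases after the most upstream RefSeq start, were at hand for 5 of the 8 genes. The gene positions above come from another annotation, GENCODE. By those positions the Tfap2a and Gata3 windows lie inside the gene and the Sox2 window ends before it, so these do not mark the 5′ ends given above. The windows of Tfap2a (chr13:40734871-40735170, minus strand), Sox2 (chr3:34649745-34650044, plus strand) and Grhl1 (chr12:24572037-24572336, plus strand) are shown because these genes passed the test in a comparison between series below, and that of Gata3 (chr2:9878551-9878850, minus strand) because Gata3 fell just outside it. Each is printed 5′ to 3′, and capitals mark matches to the AP-2 letters GCCNNNGGC:
Tfap2a: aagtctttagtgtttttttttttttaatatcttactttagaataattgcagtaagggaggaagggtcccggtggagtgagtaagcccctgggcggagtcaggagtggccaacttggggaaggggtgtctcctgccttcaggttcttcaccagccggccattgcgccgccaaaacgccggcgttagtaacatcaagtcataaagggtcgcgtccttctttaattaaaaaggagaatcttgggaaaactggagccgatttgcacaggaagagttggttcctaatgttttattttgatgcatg
Sox2: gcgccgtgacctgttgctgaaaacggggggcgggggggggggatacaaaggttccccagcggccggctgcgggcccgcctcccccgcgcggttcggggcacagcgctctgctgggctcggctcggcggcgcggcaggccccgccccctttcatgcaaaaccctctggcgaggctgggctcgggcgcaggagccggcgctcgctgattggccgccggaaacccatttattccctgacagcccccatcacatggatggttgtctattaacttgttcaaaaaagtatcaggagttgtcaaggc
Grhl1: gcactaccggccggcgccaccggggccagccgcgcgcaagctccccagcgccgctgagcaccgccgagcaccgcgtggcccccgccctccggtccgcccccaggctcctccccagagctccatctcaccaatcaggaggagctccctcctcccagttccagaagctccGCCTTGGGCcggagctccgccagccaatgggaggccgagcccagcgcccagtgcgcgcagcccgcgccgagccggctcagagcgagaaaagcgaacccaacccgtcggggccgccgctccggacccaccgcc
Gata3: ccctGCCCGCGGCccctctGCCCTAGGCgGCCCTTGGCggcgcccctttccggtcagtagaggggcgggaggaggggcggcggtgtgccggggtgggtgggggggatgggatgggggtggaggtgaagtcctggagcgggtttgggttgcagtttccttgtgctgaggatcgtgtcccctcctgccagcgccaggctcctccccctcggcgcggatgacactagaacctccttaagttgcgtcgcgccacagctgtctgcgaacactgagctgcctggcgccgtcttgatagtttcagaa
Both strands were searched for the AP-2 letters, for AGATAA as the letters that GATA factors bind, for ACAATG as those of SOX factors and for AACCGGTT as those of grainyhead factors. The Gata3 window held 3 AP-2 matches that do not overlap, the Grhl1 window 1, and the windows of Tfap2a, Sox2 and Grhl3 (chr4:135573583-135573882, minus strand) none of the letters. Of 27025 promoter windows of this length, 16.5% held the AP-2 letters, 11.4% the GATA letters, 12.75% the SOX letters and 0.155% the grainyhead letters. A match is a description of the sequence only. The G and C content was 46.3% in the Tfap2a window, 67.3% in Gata3, 66.3% in Sox2 and 75.3% in Grhl1, against a median of 52.7% over all windows.

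Sox9, Gata3 and Gata6 were detected in most cells of every set, Tfap2a mainly in GHA501A cells, Ovol1, Sox2 and Grhl3 in at most 50% of the cells of a set, with higher shares in the AG series, and Grhl1 in few cells of any set. Cells held a median of 4 of the 8 genes in each of the 4 sets, with a range from 0 to 7. Together, Sox9, Gata3 and Gata6 were detected in 47 of 66, 48 of 64, 50 of 71 and 48 of 69 cells, that is 71.2%, 75%, 70.4% and 69.6%. A single AG treated cell, outside both gates, held none of the 8. The number of factors per cell was weakly correlated with the number of detected genes (Spearman's rho over cells of 0.37, 0.27, 0.26 and 0.37 in the 4 sets, with n of 66, 64, 71 and 69).

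**Figure D1:**
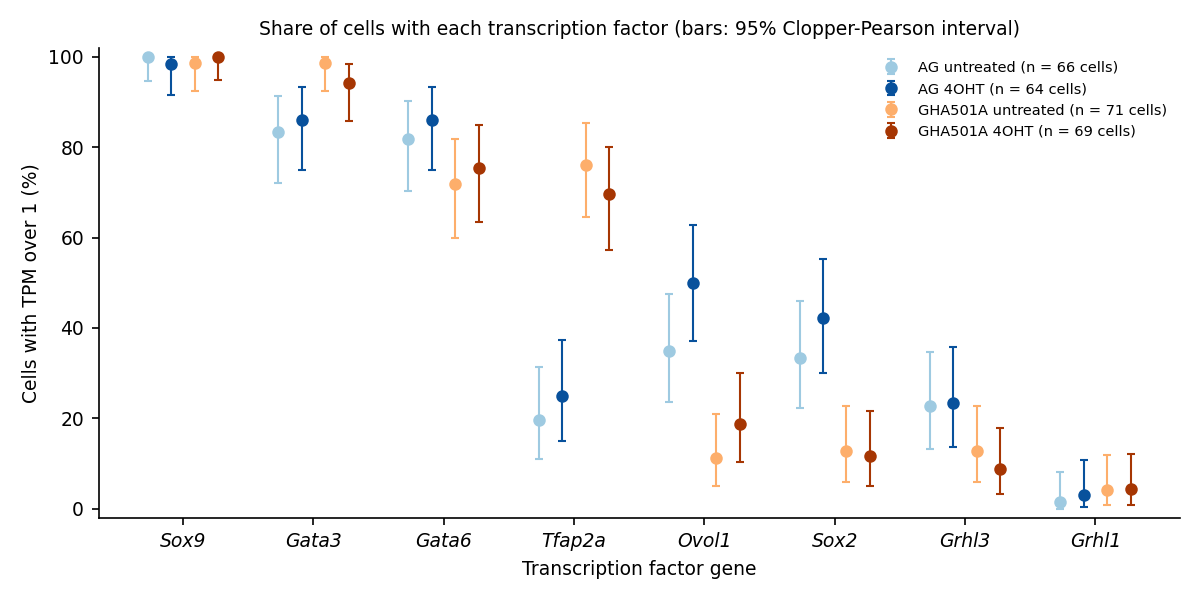
Share of cells with TPM over 1 (y axis, %) for each of the 8 transcription factor genes (x axis) in the 4 sets. Points are shares and bars are exact 95% Clopper-Pearson intervals. Tfap2a sits at 19.7% and 25% in the AG sets and at 76.1% and 69.6% in the GHA501A sets, while Ovol1 and Sox2 are higher in AG.

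By rank of shares, both AG sets lay above both GHA501A sets for 4 of the 8 genes (Gata6, Sox2, Grhl3 and Ovol1), a pattern held by 40.5% of the 12355 genes tested. For 3 of 8 (Tfap2a, Gata3 and Grhl1) both AG sets lay below, as did 34.8% of all genes. With shares so different between the series across all genes, neither count stood apart from the background. Shares are given with exact 95% Clopper-Pearson intervals, which cover the counting error of cells only.

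Levels were compared between series with limma on the log2 of the mean TPM + 1 of each set, with treatment as a covariate, and calls were made at a Benjamini-Hochberg adjusted p under 0.05 with a log2 fold change over 0.5 in size. This fit of 4 sets had 1 residual degree of freedom. AG minus GHA501A passed for 3 of the 8 factors, against 33.7% of all genes. Sox2 and Sox9 were higher in AG (13.6% of all genes were called higher) and Tfap2a was lower (20.1% called lower). The median log2 fold change was 0.65 over the 8 factors and -0.01 over all genes tested. Keratinocyte and fibroblast markers differed in the same comparison, with 10 of 12 keratinocyte markers higher in AG and 1 lower, and 7 of 8 tested fibroblast markers lower. The lower keratinocyte marker was Itgb4, which was listed at 0 in all AG cells. Series and cell makeup thus moved together in this comparison. Fewer cells of a type and less RNA per cell cannot be told apart in the mean of a set.

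Tfap2a was detected in 13 of 66 AG untreated cells (19.7%, interval 10.9% to 31.3%) and 16 of 64 AG treated cells (25%, 15.02% to 37.4%). In the GHA501A series it was detected in 54 of 71 untreated cells (76.1%, 64.5% to 85.4%) and 48 of 69 treated cells (69.6%, 57.3% to 80.1%). The intervals of the AG sets, which cover the counting of cells only, did not overlap those of the GHA501A sets. Both AG shares lay below both GHA501A shares for 34.8% of all genes. Across cells the lowest, median and highest values were 0, 0 and 62.6 TPM in AG untreated, 0, 0 and 27.65 TPM in AG treated, 0, 3.36 and 640.0 TPM in GHA501A untreated and 0, 4.55 and 458.3 TPM in GHA501A treated. Mean levels were 1.62 and 1.41 TPM in AG and 23.1 and 25 TPM in GHA501A, so that the spread within a series was far smaller than the gap between them. The log2 fold change was -3.32 (SE 0.46, adjusted p = 0.0036), and 3 cells gave 58.4% and 48.8% of the summed TPM in the GHA501A sets. At a stricter detection of TPM > 10, Tfap2a remained in 3.03% and 1.56% of AG cells and in 18.3% and 34.8% of GHA501A cells. Low values were more common in one series: 6.72% of the values above 0 were at most 1 TPM in AG and 13.6% in GHA501A, and the part of this in the Tfap2a result was not tested.

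Tfap2a was frequent in both marker gates of the GHA501A series. Within the GHA501A series it was detected in 6 of 8 untreated and 8 of 10 treated Krt14-gate cells, and in 46 of 60 and 32 of 49 Col1a1-gate cells. With both treatments pooled, the shares were 77.8% (52.4% to 93.6%) in 18 Krt14-gate cells and 71.6% (62.1% to 79.8%) in the Col1a1-gate cells. In the Krt14-gate cells of the AG series the share was 21.95% (14.99% to 30.3%, n = 123). Thus Krt14-gate cells of the 2 series had shares whose intervals did not overlap, while those of the 2 gates within GHA501A did. These intervals too cover the counting of cells only. The log2 fold change between series within the Krt14 gate was -3.21 (SE 1.06), close in size to that over all cells, but it did not pass the test (adjusted p = 0.0978). Tfap2a means in the GHA501A Krt14 gate were 7.16 TPM untreated and 67.5 TPM treated, where 1 cell gave 67.9% of the sum, against 1.67 and 1.45 TPM in AG. Without the GHA501A untreated set the gate difference was -4.75 and was called (adjusted p = 0.0186), and without the treated set it was -1.68 (adjusted p = 0.064).

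Gata3 was detected in 55 of 66, 55 of 64, 70 of 71 and 65 of 69 cells (83.3%, 85.9%, 98.6% and 94.2%). Mean levels were 46.4 and 39.1 TPM in AG and 99.7 and 68.9 TPM in GHA501A. Both GHA501A sets lay above both AG sets, and the log2 fold change of -0.94 (SE 0.29) fell just short of the threshold (adjusted p = 0.0511). AG untreated cells without Gata3 had a median of 4674 detected genes against 6287 in those with it, while in AG treated cells the medians were 6343 and 6436. When cells with under 5000 detected genes were left out, the AG shares were 94.55% and 91.2% and the GHA501A shares 98.6% and 94.03%, so the series no longer separated by share. Within GHA501A, Gata3 was in all 18 Krt14-gate cells and in 97.25% of Col1a1-gate cells.

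Gata6 was detected in 54 of 66 and 55 of 64 AG cells (81.8% and 85.9%) and in 51 of 71 and 52 of 69 GHA501A cells (71.8% and 75.4%), with overlapping intervals. Mean levels were 70.2, 64.5, 47.6 and 52.0 TPM. In GHA501A treated cells a single cell at 1662 TPM gave 46.3% of the sum, and the median there was 10.8 TPM against 58.4 TPM in AG treated cells. AG minus GHA501A did not pass the test (log2 fold change 0.43, SE 0.29, adjusted p = 0.302). Within the Krt14 gate the Gata6 means were 71.96 and 67.96 TPM in AG and 12.25 and 23.3 TPM in GHA501A, and the log2 fold change of 1.98 (SE 0.60) also missed it (adjusted p = 0.0782).

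Sox9 was the most abundant of the 8 genes in every set and was detected in 66 of 66, 63 of 64, 70 of 71 and 69 of 69 cells. The lowest, median and highest values were 10.1, 475.4 and 2932 TPM in AG untreated, 0, 362.2 and 1555 TPM in AG treated, 0, 208.8 and 1441 TPM in GHA501A untreated and 4.51, 131.2 and 1172 TPM in GHA501A treated. Mean levels of 634.3 and 433.6 TPM in AG lay above those of 255.5 and 209.5 TPM in GHA501A. The log2 fold change between series was 1.18 (SE 0.21, adjusted p = 0.00804). Within the Krt14 gate the means were 627.2 and 455.7 TPM in AG and 454.5 and 196.7 TPM in GHA501A, so the AG treated and GHA501A untreated means nearly met, and the difference did not pass (0.84, SE 0.38, adjusted p = 0.194). Sox9 was also at 230.9 and 207.8 TPM in the Col1a1-gate cells, so it was not restricted to cells with high Krt14.

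Sox2 was detected in 22 of 66 and 27 of 64 AG cells (33.3%, interval 22.2% to 46.01%, and 42.2%, 29.9% to 55.2%). In GHA501A it was in 9 of 71 and 8 of 69 cells (12.7%, 5.96% to 22.7%, and 11.6%, 5.14% to 21.6%). The highest values were 935.3 and 300.9 TPM in the AG sets and 35.5 and 126.6 TPM in the GHA501A sets, and the medians were 0 in all 4. Means of 38.5 and 20.6 TPM in AG and 1.80 and 3.37 TPM in GHA501A gave a log2 fold change of 3.06 (SE 0.54, adjusted p = 0.00841). In AG untreated cells 3 cells gave 75.8% of the summed Sox2 TPM. By gate, Sox2 was in 5 of 8 and 1 of 10 GHA501A Krt14-gate cells and in 4 of 60 and 5 of 49 Col1a1-gate cells. Pooled over treatment this was 33.3% (13.3% to 59.01%) and 8.26% (3.85% to 15.1%), beside 39.02% in AG Krt14-gate cells. The 2 treatment sets in the GHA501A Krt14 gate were far apart in the share of cells with Sox2. Their mean levels were closer, at 8.16 TPM untreated and 12.66 TPM treated. Treated minus untreated log2 of the mean TPM + 1 was 0.576 there and -0.888 in the AG Krt14 gate. The series difference in level within the gate did not pass (1.42, SE 0.76, adjusted p = 0.261). Of the Merkel cell markers, 2 of 3 tested were higher in AG, namely Krt8 and Krt18, which simple epithelia also express, whereas Atoh1, the Merkel lineage factor, was detected in 2, 3, 2 and 0 cells of the 4 sets and Krt20 in 1, 0, 1 and 0. Of the dermal papilla markers, 0 of 4 tested were higher in AG and 3 were lower (Vcan, Alpl and Crabp1), with a list median of -3.50.

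When any 1 set was left out of the series comparison, which also dropped the treatment term, Tfap2a passed each time (adjusted p from 0.0214 to 0.0483). Sox2 passed only without the GHA501A treated set (adjusted p = 0.0482, against 0.0643 to 0.0931 without each of the others), and Sox9 missed the threshold whichever set was left out (0.0565 to 0.15). Without the GHA501A untreated set Grhl1 was called, at a log2 fold change of -1.33 (adjusted p = 0.0206).

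**Figure D2:**
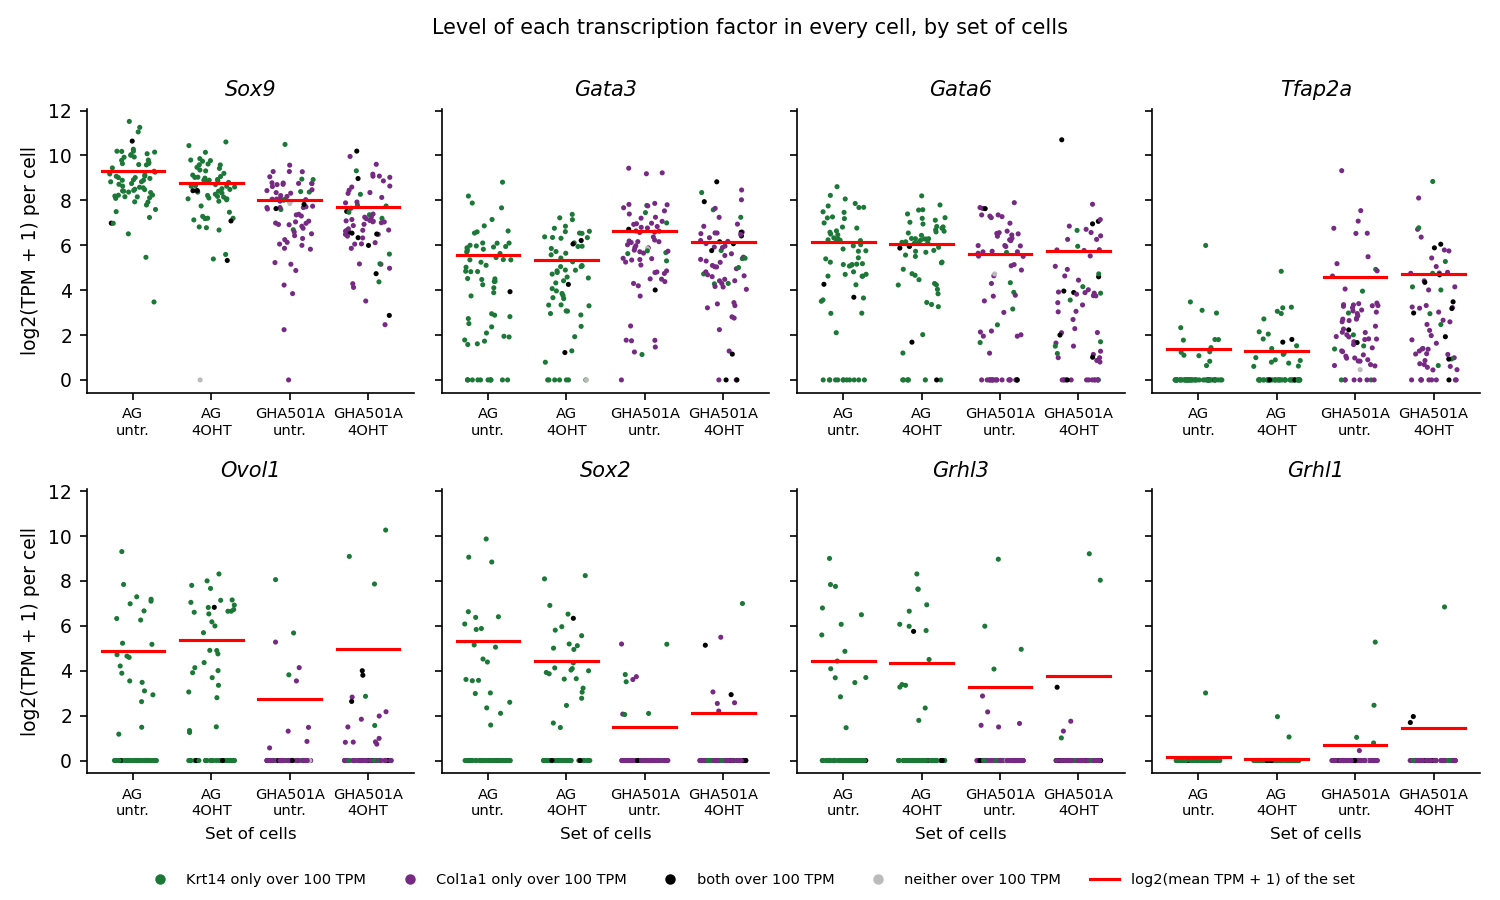
Level of each of the 8 genes as log2(TPM + 1) (y axis) in every cell, by set (x axis), with points coloured by marker gate and a red line at the log2 of the mean TPM + 1. Sox9 is above 0 in nearly all cells, and the highest Grhl3 and Ovol1 values of the GHA501A series belong to Krt14-gate cells.

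Grhl3, which acts in barrier formation and late differentiation, was detected in 15 of 66 and 15 of 64 AG cells (22.7% and 23.4%) and in 9 of 71 and 6 of 69 GHA501A cells (12.7% and 8.70%). Its means were 20.8 and 19.1 TPM in AG and 8.79 and 12.6 TPM in GHA501A, and its log2 fold change of 0.86 (SE 0.42) did not pass (adjusted p = 0.172). Single cells carried these means in GHA501A: the cells at 500.3 and 592.3 TPM gave 80.2% and 68.3% of the sums. Ovol1, a zinc finger factor of cells that leave the cycle, was in 23 of 66 and 32 of 64 AG cells (34.8% and 50%) and in 8 of 71 and 13 of 69 GHA501A cells (11.3% and 18.8%). Its means were 28.8, 40.9, 5.62 and 30.03 TPM, with a log2 fold change between series of 1.30 (SE 0.51, adjusted p = 0.103). Grhl1, a factor of desmosomal gene expression, was in 1, 2, 3 and 3 cells of the 4 sets, at means of 0.107, 0.0616, 0.625 and 1.72 TPM. At these levels the Grhl1 difference between series (log2 fold change -0.96, SE 0.36) was not called (adjusted p = 0.0925).

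Within GHA501A the levels of all 3 differentiation factors were highest in the few Krt14-gate cells. Grhl3 was in 4 of 8 and 3 of 10 Krt14-gate cells and in 5 of 60 and 2 of 49 Col1a1-gate cells, with means of 76.1 and 85.4 TPM against 0.262 and 0.0785 TPM. All GHA501A cells with Grhl3 > 10 TPM, 4 untreated and 2 treated, were in the Krt14 gate. Ovol1 was in 3 of 8 and 5 of 10 Krt14-gate cells and in 5 of 60 and 5 of 49 Col1a1-gate cells, with means of 41.1 and 201.8 TPM against 1.16 and 0.426 TPM. Grhl1 was in 3 of 8 and 1 of 10 Krt14-gate cells and in 0 of 60 and 0 of 49 Col1a1-gate cells, which together allows a share of up to 2.75%. In the cells with both gate genes > 100 TPM, Grhl1 was in 2 of 12, Grhl3 in 1 of 12 and Ovol1 in 3 of 12. At least 1 of the 3 genes was found in 5 of 8 and 7 of 10 Krt14-gate cells, against 9 of 60 and 7 of 49 Col1a1-gate cells.

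Krt14-gate and Col1a1-gate cells were compared with limma with set as a block, so that only the GHA501A sets, which held both gates, informed the difference. The fit had 1 residual degree of freedom. It called 0 of the 8 factors and 0% of all genes, although 1680 genes and 4 of the 8 had an unadjusted p under 0.05. The log2 fold changes were 6.13 for Grhl3 (SE 0.54, adjusted p = 0.26), 5.72 for Ovol1 (SE 1.01, adjusted p = 0.287), 3.16 for Grhl1 (SE 0.34, adjusted p = 0.26) and 2.36 for Sox2 (SE 0.59, adjusted p = 0.345). Those of Sox9 (0.45), Gata3 (0.22), Tfap2a (0.08) and Gata6 (-1.12) were smaller, and the SE for Tfap2a was 1.28. The median was 1.41 over the 8 factors and -0.17 over all genes. Without the block, so that the AG Krt14-gate sets entered too, limma called 228 of 12355 genes. Among them were Grhl3 (5.17, adjusted p = 0.0283) and Ovol1 (5.05, adjusted p = 0.0326). All Col1a1-gate cells were of the GHA501A series, so that fit mixes the gate with the series. The 12 keratinocyte markers, which include the gate gene Krt14, had a median log2 fold change of 6.75, with 0 called.

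**Figure D3:**
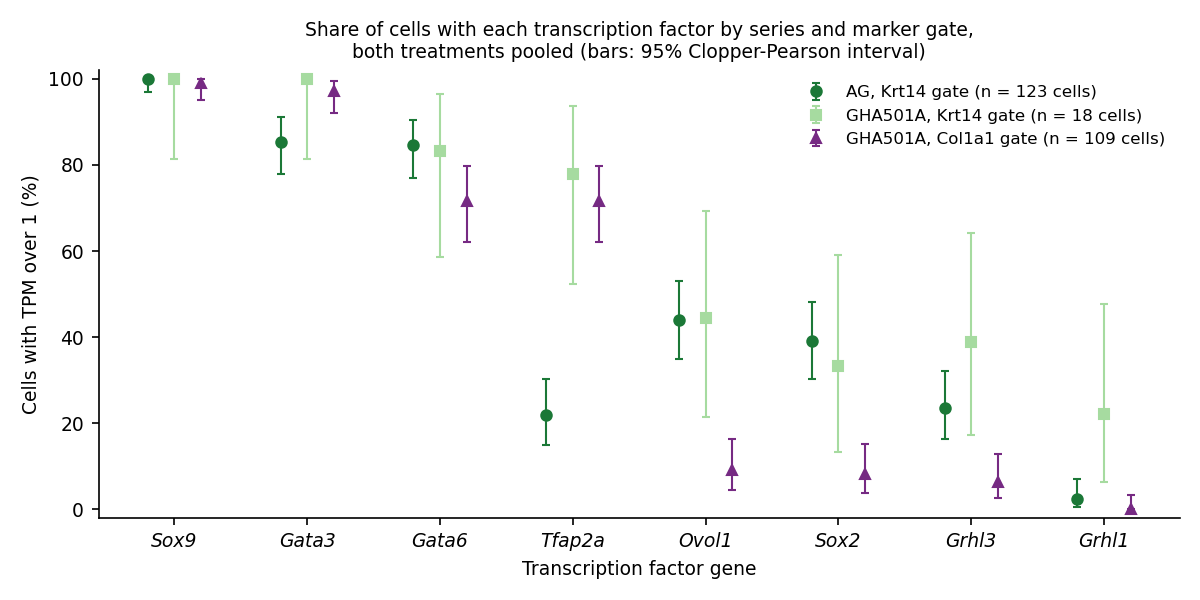
Share of cells with TPM over 1 (y axis, %) for each gene (x axis) in AG Krt14-gate, GHA501A Krt14-gate and GHA501A Col1a1-gate cells, both treatments pooled. Bars are exact 95% Clopper-Pearson intervals. Ovol1 is at 43.9%, 44.4% and 9.17%, whereas Tfap2a is at 21.95%, 77.8% and 71.6%.

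Among Krt14-gate cells the series were compared again. Here 1 of the 8 factors was called, against 14.6% of all genes. Grhl1 was lower in AG, with means of 0.110 and 0.0669 TPM against 5.50 and 11.4 TPM in GHA501A (log2 fold change -3.04, SE 0.67, adjusted p = 0.0369). Grhl1 was detected in 3 of 130 AG cells and 6 of 140 GHA501A cells, so it passed the filter on low values only through GHA501A. Its GHA501A means in the gate rested on 8 and 10 cells, and 1 cell gave 85.8% and 100% of the sum. The call was lost without either AG set (adjusted p of 0.235 without the untreated and 0.227 without the treated set) and with no filter on low values (adjusted p = 0.0993). Grhl3 (-1.91, SE 0.54, adjusted p = 0.0674) and Ovol1 (-1.34, SE 0.61, adjusted p = 0.196) also had negative values and did not pass. Over all cells the same 2 genes had positive values, so the sign of the series difference depended on whether the gate was applied. In the GHA501A Krt14 gate, untreated and treated, 1 cell gave 82.2% and 69.3% of the Grhl3 sum and 80.7% and 61.1% of the Ovol1 sum. Pooled shares in AG and GHA501A Krt14-gate cells were 23.6% (16.4% to 32.1%) and 38.9% (17.3% to 64.25%) for Grhl3 and 43.9% (34.97% to 53.1%) and 44.4% (21.5% to 69.2%) for Ovol1, with intervals that overlap.

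**Figure D4:**
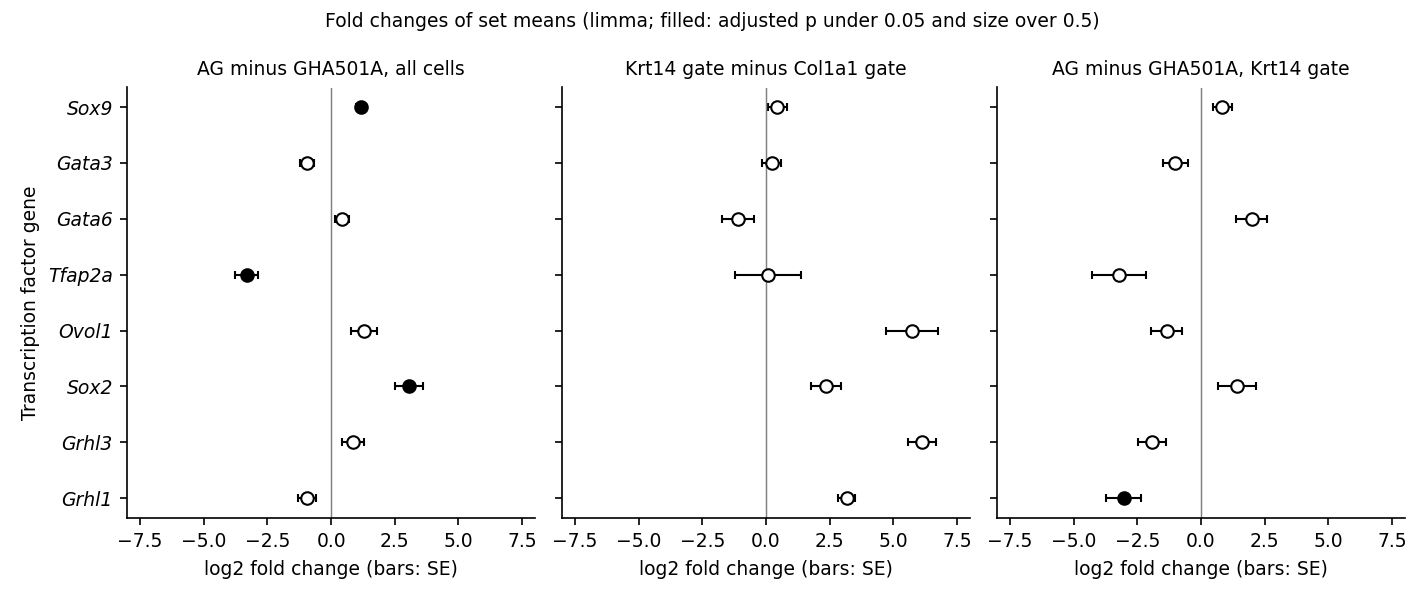
Log2 fold change of set means (x axis, bars are the standard error from limma) for each gene (y axis) in 3 comparisons. Filled points passed the test. The series comparison over all cells called Sox2 and Sox9 higher and Tfap2a lower, the gate comparison called no gene, and the series comparison within the Krt14 gate called Grhl1 alone.

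Treatment moved none of the 8 factors past the test. With series as a block, limma called 0 of 8 factors and 0% of all 12355 genes for treated minus untreated, with 486 genes and 1 of the 8 at an unadjusted p under 0.05. Shares were higher with 4OHT in both series for 3 of 8 factors (Gata6, Grhl1 and Ovol1), as for 19.8% of all genes, and lower in both for 0 of 8, as for 21.4%. Ovol1 had the largest log2 fold change of the 8 over all cells. Its share was 34.8% untreated and 50% treated in AG, and 11.3% and 18.8% in GHA501A, with intervals that overlap within each series. The makeup of the GHA501A sets also differed by treatment, with 8 untreated and 10 treated cells in the Krt14 gate and 2 and 10 cells with both gate genes > 100 TPM, and 11 of the 12 keratinocyte markers had a log2 fold change above 0 (median 0.75, with 0 called). The part of this in the Ovol1 values was not tested. The Ovol1 log2 fold change was 1.36 (SE 0.51, adjusted p = 0.998), and 1 GHA501A treated cell at 1232 TPM gave 59.5% of the TPM of its set. Sox9 had lower means after treatment in both series (634.3 and 433.6 TPM in AG, 255.5 and 209.5 TPM in GHA501A), at a log2 fold change of -0.42 (SE 0.21, adjusted p = 0.998). Within the Krt14 gate 0 of 8 factors and 0% of all genes were called by limma, with 288 genes and 0 of the 8 at an unadjusted p under 0.05. Ovol1 there was at 29.7 and 42.5 TPM in AG and at 41.1 and 201.8 TPM in GHA501A (log2 fold change 1.39, SE 0.61). Treated minus untreated log2 of the mean TPM + 1 there was 0.505 in AG and 2.267 in GHA501A for Ovol1. For Tfap2a it was -0.123 in AG and 3.069 in GHA501A. In GHA501A Col1a1-gate cells the Ovol1 means were 1.16 TPM untreated and 0.426 TPM treated. With 2 sets a treatment, the smallest p of an exact permutation test is 0.333, so no single gene could pass one. The same floor holds for the series comparisons, which also set 2 sets against 2.

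Co-detection was described within each set. Ovol1 was detected in 8 of 15, 9 of 15, 4 of 9 and 2 of 6 cells with Grhl3 (53.3%, 60%, 44.4% and 33.3%), and in 29.4%, 46.9%, 6.45% and 17.5% of the cells without it. The share was thus higher with Grhl3 in all 4 sets, over all cells of a set. In the GHA501A sets the Krt14 gate held 7 of the 15 Grhl3 cells and 8 of the 21 Ovol1 cells. Part of that co-detection thus lay between gates. In the GHA501A untreated Krt14 gate the 4 Grhl3 cells held Ovol1 at 13.11, 265.7, 50.37 and 0 TPM. Ovol1 was in 3 of the 8 cells of that untreated gate. The 3 Grhl3 cells of the GHA501A treated Krt14 gate, at 592.3, 261.1 and 1.009 TPM, held Ovol1 at 232.1, 0 and 0 TPM. Ovol1 was in 5 of the 10 cells of that gate. Gata6 was in 91.3%, 90.6%, 87.5% and 84.6% of cells with Ovol1 and in 76.7%, 81.25%, 69.8% and 73.2% of cells without. Sox2 was in 4 of 15 and 3 of 15 AG cells with Grhl3 (26.7% and 20%) and in 35.3% and 48.98% of AG cells without, the opposite order to the GHA501A sets (22.2% and 16.7% with, 11.3% and 11.1% without). All 3 of Grhl1, Grhl3 and Ovol1 were found together in 0 AG cells and in 2 untreated and 2 treated GHA501A cells, of which 2 and 1 were in the Krt14 gate. All 13 GHA501A treated cells with Ovol1 held Tfap2a, against 62.5% of those without Ovol1. Among GHA501A untreated cells the order was the opposite, with Tfap2a in 5 of 8 cells with Ovol1 (62.5%) and in 77.8% of those without.

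**Figure D5:**
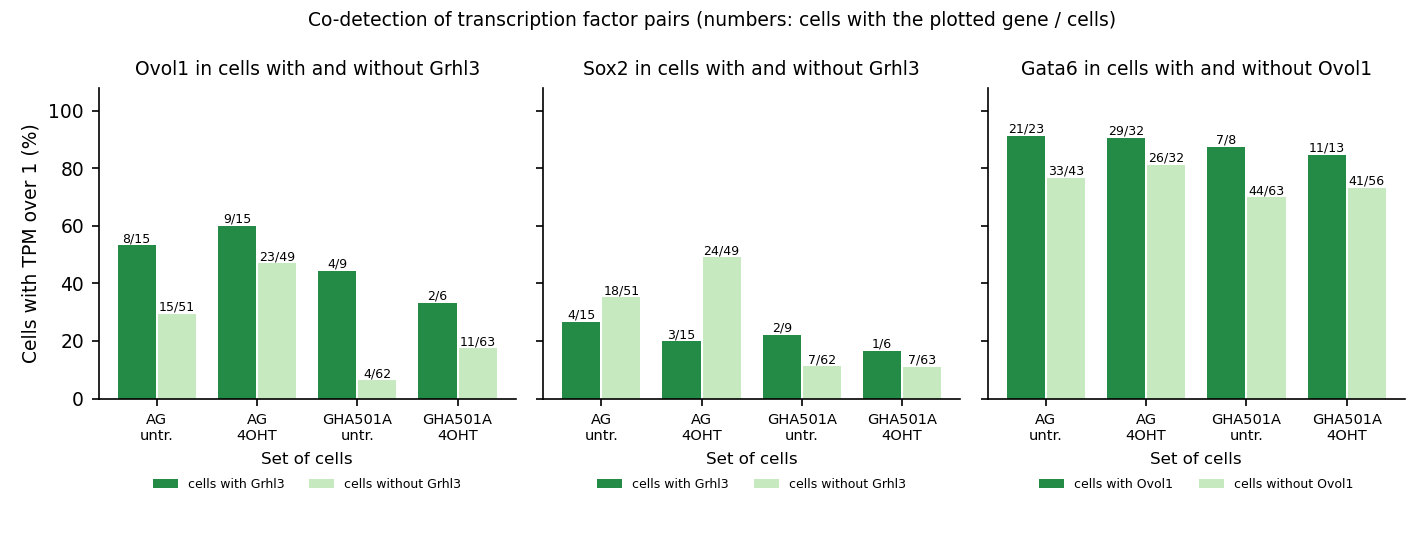
Share of cells with TPM over 1 (y axis, %) of Ovol1 and Sox2 in cells with and without Grhl3, and of Gata6 in cells with and without Ovol1, by set (x axis). Ovol1 is more frequent in cells with Grhl3 in each of the 4 sets, at 53.3% against 29.4% in AG untreated cells.

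Pairwise Spearman correlations of log2(TPM + 1) among the factors were low. Their medians were 0.03, 0.02 and 0.02 over 21 pairs in AG untreated, AG treated and GHA501A untreated cells and 0.07 over 15 pairs in GHA501A treated cells. The highest was 0.47 between Grhl3 and Ovol1 in the 71 GHA501A untreated cells, where both genes are at 0 in most cells. The genes most like each factor were taken as the 3 highest correlations over untreated cells of a series, which gave 39 pairs with rho from 0.39 to 0.64. Over the treated cells, which were not used in that choice, rho of the same pairs ranged from -0.10 to 0.34 with a median of 0.09. The highest values in treated cells were 0.34 for Tfap2a with Nr2f1, an orphan nuclear receptor gene, in GHA501A (n = 69), 0.32 for Sox9 with Wfdc18 in AG and 0.32 for Gata3 with Golph3 in AG (n = 64). These are descriptions over cells that share a series and a treatment label.

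Other epidermal and follicle transcription factors showed both directions between series. Of 27 tested, 11 were higher in AG and 6 lower. Zfp750, a p63-dependent differentiation factor, had a log2 fold change of 3.96 (adjusted p = 0.00418) and Ehf, an epithelial Ets factor, of 3.82 (adjusted p = 0.00118), whereas Elf3, another epithelial Ets factor, was lower in AG at -4.78 (adjusted p = 0.00125). Elf3 was lower in AG also within the Krt14 gate (-7.56, adjusted p = 0.00709), where 4 of the 27 were higher and 2 lower. Grhl2, the third grainyhead-like gene, which was singled out after its values were seen, was detected in 77.3% and 78.1% of AG cells and in 15.5% and 14.5% of GHA501A cells (log2 fold change 2.40, adjusted p = 0.0117). Among mesenchymal transcription factors 0 of 9 were higher in AG and 5 were lower, including Snai1 (-3.61, adjusted p = 0.00107), Prrx1 (-3.44, adjusted p = 0.00168) and Tcf4 (-3.02, adjusted p = 0.00356). Of 16 basal epithelial genes linked to p63, 11 were higher in AG and 2 lower, and of 7 late differentiation genes 3 were higher and 0 lower, namely Sprr1a at 4.05 (adjusted p = 0.00253), Cldn4 at 3.17 (adjusted p = 0.000563) and Tgm3, which was listed at 0 in both GHA501A sets (adjusted p = 0.0123). Over all cells, 13.6% of all genes were called higher in AG and 20.1% lower. Among the 16 genes linked to p63, Itgb4, listed at 0 in all 130 AG cells, was 1 of the 2 lower over all cells. Within the Krt14 gate 0 of the 16 genes linked to p63 were higher in AG and 2 lower (Itgb4 and Dst). There 0 of the 9 mesenchymal factors were called, and of the 7 late differentiation genes 1 was higher and 1 lower. None of these lists had a gene called for treatment.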

How the data were processed

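Expression was measured by single-cell RNA-seq of full-length cDNA (SMART-Seq v4, C1 chip). The authors trimmed reads with cutadapt, used TopHat for alignment to GRCm38 (reads with several positions were dropped) and featureCounts for counting, and deposited TPM per gene and cell (tool versions not given in the sources used here). Of 294 columns, 16 matched no label and were not used, and 8 of 278 labelled cells, whose name and treatment label disagree, were left out, leaving 270 cells. TPM carry no depth. Each cell is 1 sample, so the set (series by treatment) was the unit: mean TPM per set, log2 with a pseudocount of 1, limma 3.58.1 in R 4.3.3 (lmFit, eBayes with trend, two-sided, Benjamini-Hochberg over all 12355 genes), with series or treatment as the other term. The same series in both treatments served as the replicate block; the study's methods control for batch without saying which cells form one. Scripts were tested on simulated data. Shares carry 95% Clopper-Pearson intervals, and a count of 0 allows 3 cells. The members were always named, with up to 3 called genes of largest fold change per list and the 3 genes most correlated with a member. Members and lists were chosen with earlier results of these data known. Positions come from GENCODE M21.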

Additional observations from a re-analysis of the deposited data

Results flagged for a closer look

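The treatment difference of Sox2 is given here because it pointed in opposite directions in the 2 series. The log2 of the mean TPM + 1 changed by -0.871 in AG and by 0.643 in GHA501A, with 1 untreated and 1 treated set in each, so the difference between the series was not tested. The share of cells with Sox2 went the other way in both, from 33.3% to 42.2% in AG and from 12.7% to 11.6% in GHA501A. The means rested on few cells. In the untreated and treated sets 3 cells gave 75.8% and 52.5% of the summed Sox2 TPM in AG and 65.9% and 88.2% in GHA501A.

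Among the cells left out because their library name and treatment label disagree, the 3 cells named as treated but labelled untreated all held Ovol1, at 63 TPM or more, above the third quartile of 24.99 TPM over the 130 AG cells. In the 5 cells named as untreated but labelled treated, Ovol1 was at 0 throughout, and Tfap2a was above 0 in a single cell, at 2.06 TPM, with 0 in the other 4 cells. Tfap2a was detected in 22.3% of the 130 AG cells and Ovol1 in 42.3%.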

How the results depend on the processing

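Counts over all genes moved with the way cells were averaged. Taking the mean of log2(TPM + 1) over cells called 5 genes for treatment (9 within the Krt14 gate), 6305 genes and 7 of the 8 factors for series (3378 higher and 2927 lower in AG, against 1677 and 2485, with a median of all genes of 0.11), and 3362 genes and 3 factors for series within the Krt14 gate. Leaving out each set in turn gave 1865 to 2677 genes (2120 without AG treated, 2618 without GHA501A untreated) and 1 to 2 factors for series, and 942 to 2916 genes (972 without AG treated) and 0 to 4 factors within the Krt14 gate. In that gate comparison no filter on low values left 84 genes and 0 factors, a filter at 10% of cells left 0 factors since Grhl1 was not tested, and gates at 1000 TPM gave 2 factors. Without the replicate block, that is unpaired, the Krt14 gate against Col1a1 gate comparison called 228 genes and 2 factors, with gate and series mixed. The series comparison within the Krt14 gate then called 2 factors (2253 genes), the series comparison called 4177 genes, and the treatment comparisons called 0. The block changed no other call of a count. The cause of these shifts was not tested except where fewer genes or samples entered. For the gate comparison Tfap2a turned to -0.66 and -0.68 with gates at 10 and 1000 TPM and to -1.53 without the block, and Gata3 to -0.29 without the block. With 1 GHA501A set left out, values without a test ranged from -1.74 to 1.90 for Tfap2a, -0.22 to 0.65 for Gata3 and -0.079 to 0.97 for Sox9. Sox9 for treatment ranged from -1.07 to 0.24 with 1 set left out, with 0.24 without AG untreated and 0.11 without GHA501A treated. Gates at 10 TPM, and leaving out a GHA501A set, left no residual degree of freedom. At TPM > 10 the median number of factors per cell was 3 in every set. Of 304 alternatives for single fold changes 256 kept direction and side of the threshold and 20 of the share alternatives left the interval of the reported share. Chosen after seeing the data were, within the Krt14 gate, the filters, the left-out sets, the series fit without the block, and for treatment the pseudocount and averaging, besides the 10% filter between gates and, for series, conflicting cells placed by name. With 1 residual degree of freedom and no read counts, precision rests on the number of sets.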
